A study of Mus musculus with 14 samples.

Results

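The genes described here are 10 genes of the leptin receptor-positive stroma of the bone marrow and of the adipocyte lineage that arises from it: Lepr, Adipoq, Lpl, Pparg, Cebpa, Ebf1, Ebf3, Foxc1, Fabp4 and Apoe. They were chosen by name, with earlier results of these data known, and are 10 of the 27099 genes counted. All 10 were among the 18152 genes that held enough counts to be tested. Their RNA was measured in 14 libraries of bone marrow stromal cells (BMSCs) from Nes-GFP mice, in which the regulatory elements of nestin drive green fluorescent protein (GFP). In AML mice the MLL-AF9 fusion is placed under a tetracycline-response element and the transactivator rtTA is expressed from ROSA26, so that doxycycline starts an acute myeloid leukemia (AML) without transplantation. Normal mice were given 5% sucrose in place of doxycycline, so leukemia and doxycycline cannot be told apart. The paper calls these controls wild type, and its sequencing methods do not say whether they carried rtTA or the fusion. Transgene and leukemia may therefore not be separable either. Mice were 8 to 12 weeks old and of either sex, and AML mice were taken once their white blood cell count was high. Cells freed from crushed bones with collagenase were depleted of red cells by lysis and sorted as GFP+ CD45- CD31- cells, by the study's methods also Ter119- to leave out erythroid cells, in a Nes-GFP high and a Nes-GFP low population. Nes-GFP low BMSCs gave 6 libraries from normal and 4 from AML mice, and Nes-GFP high BMSCs gave 2 from each. Some libraries came from 1 mouse and others from pools of 2 mice, without a record of which, so p-values measure only the spread between these libraries.

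Marrow stromal cells that carry the leptin receptor lie around sinusoids, make niche factors such as CXCL12 and stem cell factor, and can give rise to marrow adipocytes and to bone-forming cells. Adipocyte differentiation runs through the nuclear receptor PPARG and the C/EBP factors, which switch on genes for the uptake, binding and storage of fatty acids. EBF1, EBF3 and FOXC1 are transcription factors that maintain the identity of these stromal cells in mouse marrow, and many such cells express adipocyte genes without holding a large lipid droplet. Nes-GFP low cells are held to overlap with the leptin receptor-positive cells around sinusoids, whereas Nes-GFP high cells lie along arterioles.

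The libraries held 5615941 to 11436652 counts, and levels are given as CPM, counts scaled to library size after TMM correction for the makeup of each library. Normal high replicate 1 stood apart with 14842 genes detected, against 18177 to 20197 in the 13 others. A list of 20 other genes of leptin receptor-positive stroma summed to 2116 to 83120 CPM over the 14 libraries. Its most abundant gene, Cxcl12, ranged from 278 to 42600 CPM. The sort removed CD45+ and CD31+ cells, and endothelial markers summed to no more than 51.7 CPM in any library, but 12 neutrophil markers summed to between 637 and 85380 CPM. Neutrophil sums were highest in normal low replicate 3 (85380 CPM), AML low replicate 3 (74590 CPM), normal low replicate 4 (48370 CPM) and normal high replicate 1 (31040 CPM). In bulk samples such as these, fewer cells of a type and less RNA per cell cannot be told apart.

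**Figure D1:**
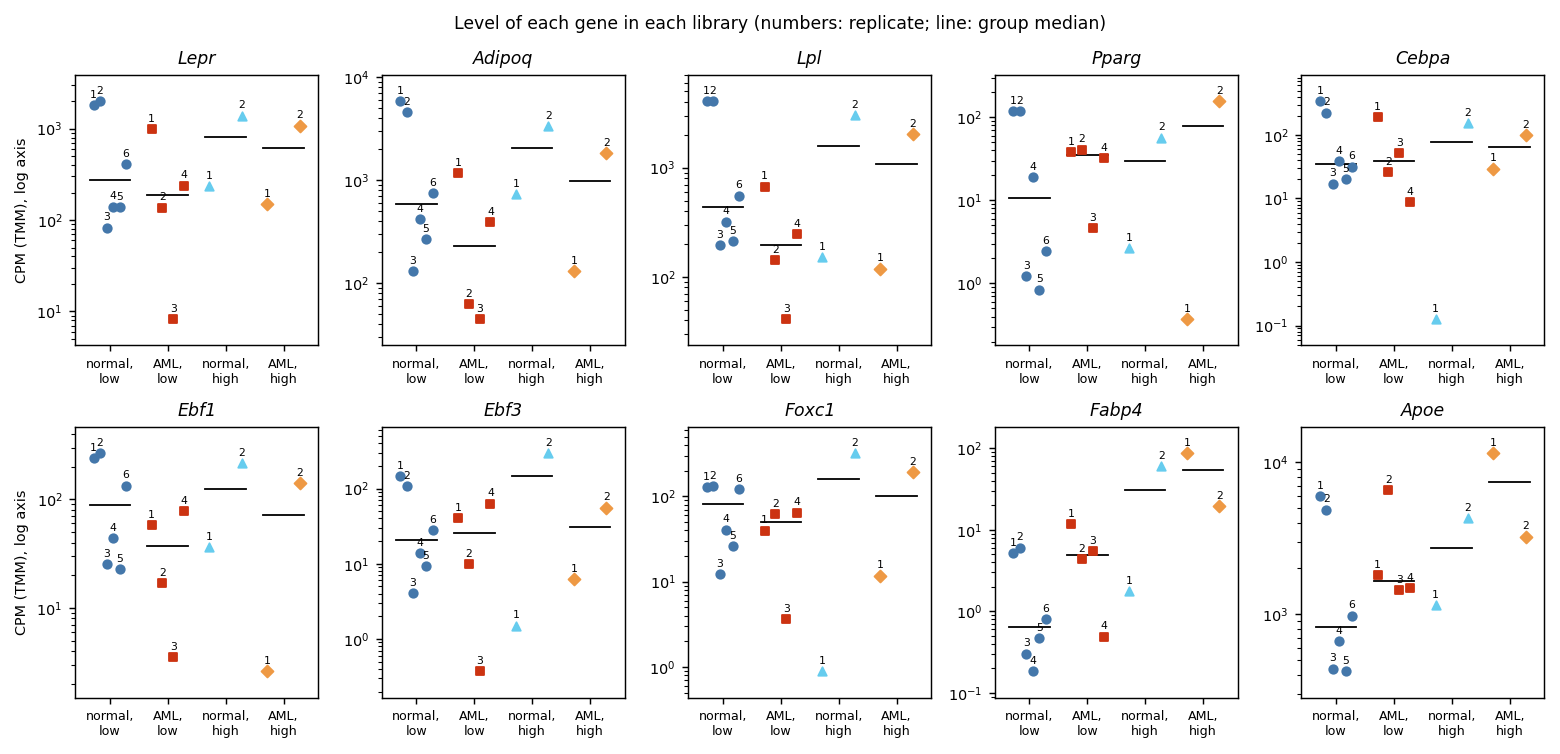
Level of each of the 10 genes (CPM after TMM, log axis) in the 14 libraries, by group. Each point is a library with its replicate number, and the line is the group median. In most panels replicates of 1 group are spread over a wider range than the distance between group medians; Lepr in normal Nes-GFP low BMSCs runs from 82.6 to 2020 CPM.

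Lepr encodes the receptor of leptin, the satiety hormone that fat cells secrete, and lies at chr4:101717404-101815352 on the plus strand (mm10). In normal Nes-GFP low BMSCs it stood at 82.6 CPM in the lowest library, 275 CPM at the median and 2020 CPM in the highest. The 4 AML Nes-GFP low libraries held 996, 137, 8.23 and 238 CPM. Both groups thus covered more than an order of magnitude and overlapped, and the lowest value of all, 89 counts, came from AML low replicate 3. Lepr held 233 and 1390 CPM in the normal and 150 and 1080 CPM in the AML Nes-GFP high libraries. Each pair of Nes-GFP high libraries therefore had a low and a high member, and neither population lacked Lepr.

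Adipoq (chr16:23146536-23158028, plus strand) encodes adiponectin, a hormone of adipocytes that is also a marker of leptin receptor-positive marrow stroma. Its level in normal Nes-GFP low BMSCs was 130 CPM at the lowest, 583 CPM at the median and 5900 CPM at the highest. AML Nes-GFP low libraries held 1170, 63.1, 44.7 and 392 CPM. Of these 4 AML libraries, replicates 2 and 3 lay below every normal Nes-GFP low library, and replicates 1 and 4 lay inside the normal range. Nes-GFP high BMSCs held 732 and 3370 CPM in normal and 132 and 1830 CPM in AML mice.

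Lpl, at chr8:68880491-68907448, encodes lipoprotein lipase, which frees fatty acids from circulating triglycerides. It ranged from 196 CPM through a median of 437 CPM to 4100 CPM in normal Nes-GFP low BMSCs. The AML Nes-GFP low libraries held 672, 142, 41.0 and 248 CPM. Replicates 2 and 3 were again below all 6 normal libraries. In Nes-GFP high BMSCs Lpl stood at 152 and 3010 CPM in normal and at 119 and 2030 CPM in AML mice.

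Apoe (chr7:19696109-19699188, minus strand) encodes apolipoprotein E, the ligand through which cells take up lipoprotein particles, and macrophages as well as stromal cells make it. Normal Nes-GFP low libraries held 419 CPM at the lowest, 823 CPM at the median and 6010 CPM at the highest. AML Nes-GFP low libraries held 1800, 6590, 1440 and 1490 CPM, and replicate 2 stood well above the 3 others. Apoe reached 1140 and 4280 CPM in normal and 11500 and 3240 CPM in AML Nes-GFP high BMSCs. Macrophage markers, a list of 12 genes, summed to 234, 600, 1426 and 171 CPM in the AML low libraries, in replicate order, and to 195 and 10.04 CPM in the AML high libraries. The 4 most abundant macrophage markers, Spi1, Csf1r, Cd68 and Mertk, reached 587, 423, 248 and 76.2 CPM over the 14 libraries. They stood at 181, 146, 104 and 60.0 CPM in AML low replicate 2 and at 84.7, 53.1, 20.6 and 34.1 CPM in AML high replicate 1. The macrophage complement genes C1qa, C1qb and C1qc, which are not among these 4, did not exceed 4.26, 11.9 and 8.46 CPM in any library. Whether other cells contributed to Apoe was not tested.

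Fabp4, at chr3:10204088-10208576, encodes the fatty acid-binding protein of adipocytes, which is also made by macrophages and by capillary endothelium. Normal Nes-GFP low BMSCs held 0.183 CPM in the lowest, 0.639 CPM in the median and 6.05 CPM in the highest library. In AML Nes-GFP low BMSCs Fabp4 stood at 11.9, 4.40, 5.45 and 0.489 CPM. The Nes-GFP high libraries held it at 1.77 and 60.8 CPM in normal and at 87.7 and 19.6 CPM in AML mice. Both AML Nes-GFP high libraries lay above all 4 AML Nes-GFP low libraries, whereas normal high replicate 1 lay within the range of normal Nes-GFP low libraries. These levels rest on 2 to 64 counts in the normal Nes-GFP low libraries and on 708 and 187 counts in the AML Nes-GFP high libraries.

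Pparg (chr6:115360951-115490399) encodes the nuclear receptor that is required for adipocyte differentiation. Its level in normal Nes-GFP low BMSCs was 0.842 CPM at the lowest, 10.8 CPM at the median and 119 CPM at the highest. AML Nes-GFP low libraries held 37.7, 40.8, 4.62 and 32.4 CPM, all within the normal range. In Nes-GFP high BMSCs, Pparg held 2.65 and 56.9 CPM in normal mice and 0.372 and 158 CPM in AML mice, so that the 2 AML Nes-GFP high libraries were the lowest, with 3 counts, and the highest of all 14.

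Cebpa (chr7:35119293-35121928) encodes C/EBPα, the partner of PPARG in adipocytes and also a factor of granulocyte precursors. It ranged from 17.1 through 35 to 345 CPM in normal and held 192, 25.8, 52.1 and 8.64 CPM in AML Nes-GFP low libraries. In Nes-GFP high BMSCs it stood at 0.126 CPM, a single read, in normal replicate 1, at 153 CPM in normal replicate 2, and at 29.5 and 99.6 CPM in AML libraries. Of the 10 genes, Cebpa had the largest ratio of highest to lowest library, 2730, and that ratio rests on the single read. In AML low replicate 3, where Lepr was lowest, Cebpa stood at 52.1 CPM and neutrophil markers summed to 74590 CPM. The part of these markers in the level of Cebpa was not tested.

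Ebf1 (chr11:44617317-45008091) and Ebf3 (chr7:137193673-137314445, minus strand) encode early B cell factors, named for their role in lymphocytes and shared by stromal cells. Ebf1 held 22.7 CPM in the lowest, 88.7 CPM in the median and 267 CPM in the highest normal Nes-GFP low library, and 57.8, 17.0, 3.51 and 77.4 CPM in AML ones. Its levels in Nes-GFP high BMSCs were 36.4 and 214 CPM in normal and 2.60 and 140 CPM in AML mice. B cell markers, a list without Ebf1, summed to no more than 129 CPM in any library and were highest in normal low replicate 4, in which Ebf1 stood at 43.8 CPM. Ebf3 ranged from 4.05 through 21.0 to 147 CPM in normal and held 40.6, 9.90, 0.370 and 63.1 CPM in AML Nes-GFP low libraries. Among Nes-GFP high libraries, Ebf3 stood at 1.51 and 296 CPM in normal and at 6.19 and 55.9 CPM in AML mice. Both genes thus had a low and a high library in every group.

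Foxc1 (chr13:31806633-31812476) encodes a forkhead factor of niche-forming stroma. It held 12.2 CPM at the lowest, 81.2 CPM at the median and 132 CPM at the highest in normal Nes-GFP low BMSCs, and 39.7, 61.4, 3.61 and 64.4 CPM in AML ones. The Nes-GFP high libraries held 0.883 and 323 CPM in normal and 11.8 and 193 CPM in AML mice. AML low replicate 2, which was low in Adipoq and Lpl, held Foxc1 at 61.4 CPM.

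Levels of different genes were compared per kilobase of annotated exon. By the median over the 14 libraries, the order was Apoe (768 CPM per kb), Adipoq (416), Lepr (33.5), Lpl (27.1), Cebpa (13.3), Foxc1 (8.75), Pparg (8.74), Ebf1 (5.20), Ebf3 (2.27) and Fabp4 (1.06). Adipoq exceeded Lepr per kb in 14 of 14 libraries. Ebf1 exceeded Ebf3, and Lpl exceeded Cebpa, in 12 of 14 libraries. Other neighbours changed places more often, as Lepr exceeded Lpl in 6, Foxc1 exceeded Pparg in 7, Pparg exceeded Ebf1 in 8, Apoe exceeded Adipoq in 9, Cebpa exceeded Foxc1 in 10 and Ebf3 exceeded Fabp4 in 11 of 14 libraries. Exon length was taken as the union over all annotated transcripts, which for Fabp4 covers the whole gene (4489 bases) and lowers its value per kb.

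The spread among replicates was wide for these genes. On the log2(CPM + 1) scale, their SD in normal Nes-GFP low BMSCs ran from 1.16 (Fabp4) to 2.80 (Pparg), against a median of 0.95 over all genes tested. In AML Nes-GFP low BMSCs it ran from 1.05 (Apoe) to 2.83 (Lepr), against a median of 0.99. The share of the variance over the 14 libraries that lay within groups was 97.5% for Pparg, 96.6% for Ebf3 and 94.2% for Foxc1, and 45.0% for Fabp4, against a median of 76.4% over all genes tested. Fabp4 was thus, among the 10 genes, the one with the smallest share within groups.

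The spread was largely shared between Lepr, Adipoq, Lpl, Ebf1 and Ebf3. Over the 14 libraries, log2(CPM + 1) of Lepr correlated with that of Lpl (Pearson r = 0.93, Spearman rho = 0.89), Adipoq (0.92 and 0.96), Ebf3 (0.87 and 0.86) and Ebf1 (0.85 and 0.90). The correlation was lower for Foxc1 (r = 0.72), Pparg (0.66) and Cebpa (0.50), and lowest for Apoe (0.41) and Fabp4 (0.32). Without the 2 libraries farthest from the median of Lepr, normal low replicate 2 and AML low replicate 3, r was 0.92 with both Adipoq and Lpl, 0.82 with Ebf3 and 0.77 with Ebf1. Ebf3 and Foxc1 had r = 0.91 with each other, and Fabp4 and Apoe had r = 0.78. These points share their library, depth and cell makeup, and the values describe these libraries only. Of the 10759 genes that averaged 10 CPM or more, those most like Lepr were Rarres2 (r = 0.983), Serping1 (0.971), Kng2 (0.969), Agt (0.965) and Mmp23 (0.965). Those most like Adipoq were Vcam1 (0.980), Cxcl12 (0.977), Igfbp4 (0.974), 1500009L16Rik (0.967) and Angptl4 (0.965). Fabp4 ranked 2300 and Apoe 1734 in likeness to Lepr.

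**Figure D2:**
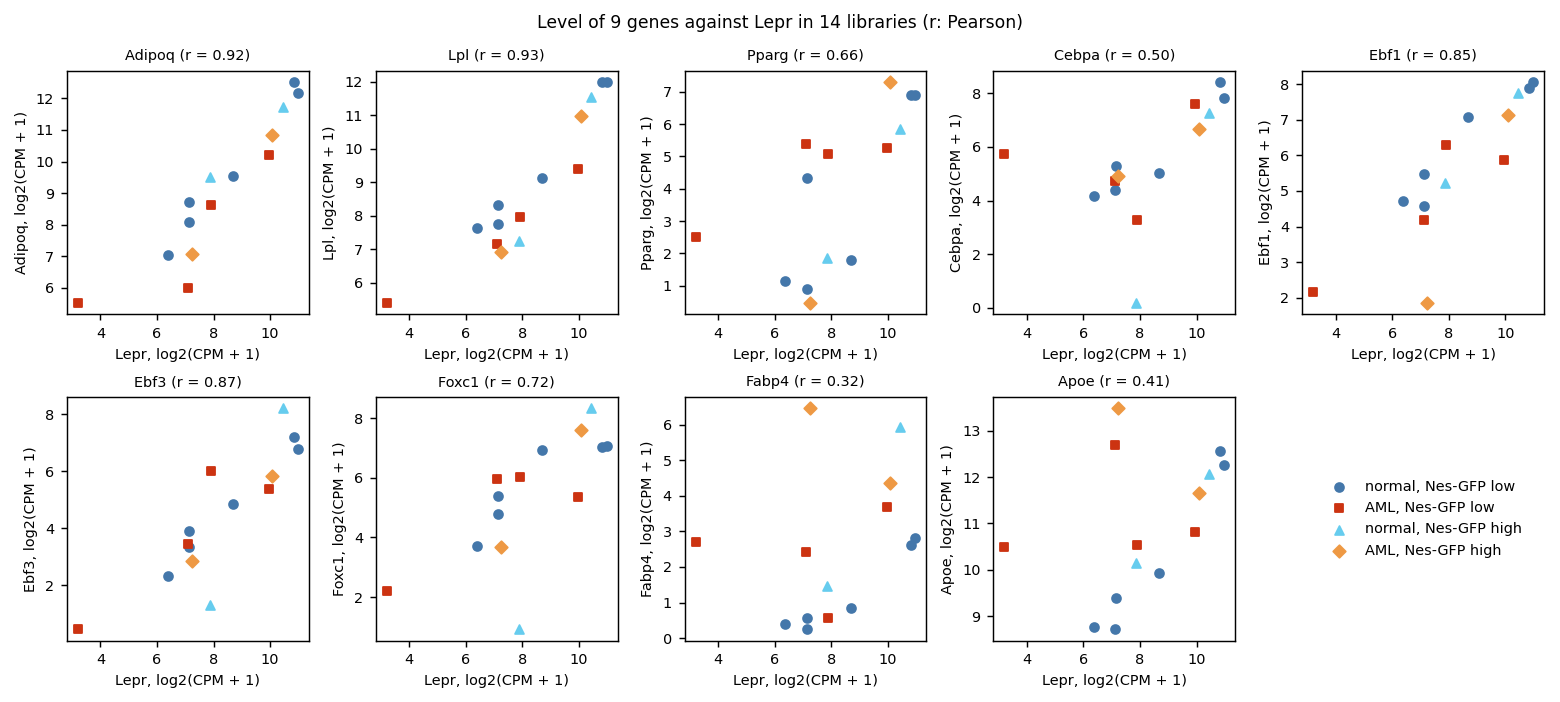
Level of 9 genes against Lepr, each as log2(CPM + 1), in 14 libraries coloured by group, with Pearson r in each title. Adipoq and Lpl follow Lepr (r = 0.92 and 0.93), whereas Fabp4 and Apoe follow it less closely (r = 0.32 and 0.41) and are both highest in AML high replicate 1, where Lepr stands at 150 CPM.

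In the 6 normal Nes-GFP low libraries the ratio of each gene to Lepr varied less than Lepr itself, which varied 24.4-fold. These are ratios of CPM, not corrected for length, and serve to compare libraries and not genes. The ratio to Lepr was 1.57 to 3.24 for Adipoq, 1.35 to 2.37 for Lpl, 2.38 to 5.31 for Apoe, 0.0491 to 0.1 for Ebf3 and 0.00131 to 0.00368 for Fabp4. The widest range was that of Pparg, at 0.00591 to 0.137. Within these 6 libraries Lepr had an r of 0.84 (Pparg) to 0.99 (Adipoq, Lpl and Ebf3) with the other genes. In the 4 AML Nes-GFP low libraries the ratios of Adipoq were 1.17, 0.460, 5.44 and 1.64 and those of Apoe were 1.80, 48.0, 175 and 6.24, both ranging more widely than in normal mice. The ratio of Apoe to Lepr was 4.90 and 3.08 in normal and 76.8 and 2.99 in AML Nes-GFP high libraries. Apoe made up 29.7% to 56.9% of the summed CPM of the 10 genes in 11 libraries, and 92.9%, 89.8% and 95.5% in AML low replicates 2 and 3 and AML high replicate 1. The stroma list summed to 4014, 2116 and 4523 CPM in these 3 AML libraries, its lowest sums of all 14, and their neutrophil sums were 9481, 74590 and 12540 CPM. The part of either list in the share of Apoe was not tested. The 3 other AML libraries had Apoe shares within 29.7% to 56.9%.

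**Figure D3:**
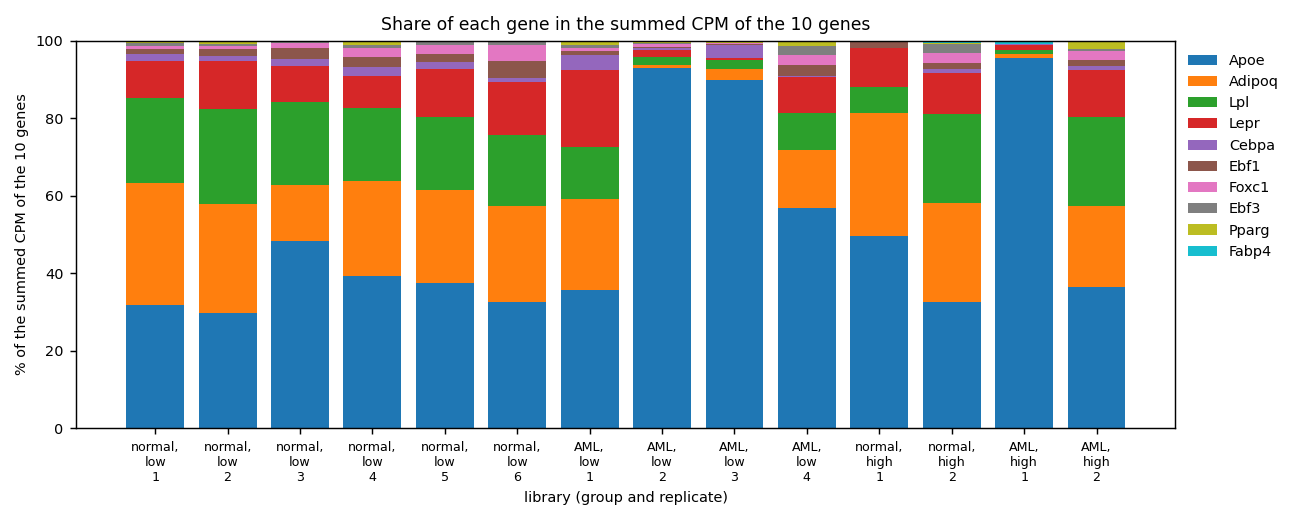
Share of each gene in the summed CPM of the 10 genes, in percent, for each library. Apoe takes 92.9%, 89.8% and 95.5% in 3 AML libraries and 29.7% to 56.9% in the other 11, in which Adipoq, Lpl and Lepr take most of the remainder.

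RefSeq promoter windows (GRCm38.p6), of which the 250 bases before each annotated start were searched, were given for 8 of the 10 genes and comprised 14 windows. Both strands were searched for the C/EBP motif TTGCNNAA, the EBF motif TCCCNNGGGA and the nuclear receptor half-site AGGTCA, and no matches overlapped. Of 32851 promoters in all, 9.56%, 0.779% and 14% held them. Pparg was the only one of the 8 genes with a match, with the C/EBP motif at -215 and -16 from the start of 1 window and the half-site at -28 and -9 in 2 others. The first of 2 windows of Lepr and the window of Adipoq, genes that varied together, and the Pparg window with C/EBP matches are printed 5′ to 3′, with matches in capitals. A match is a description of letters and not a site of binding.
Lepr, chr4:101717157-101717406, plus strand: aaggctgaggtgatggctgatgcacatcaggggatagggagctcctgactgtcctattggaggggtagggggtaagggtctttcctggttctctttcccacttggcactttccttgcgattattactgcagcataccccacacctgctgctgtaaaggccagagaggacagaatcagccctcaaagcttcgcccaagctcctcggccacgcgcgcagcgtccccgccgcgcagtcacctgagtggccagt
Adipoq, chr16:23146286-23146535, plus strand: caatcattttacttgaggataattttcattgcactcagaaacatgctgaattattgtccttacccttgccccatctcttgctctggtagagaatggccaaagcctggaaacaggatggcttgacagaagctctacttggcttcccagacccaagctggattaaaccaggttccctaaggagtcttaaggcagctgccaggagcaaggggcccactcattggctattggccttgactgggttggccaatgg
Pparg, chr6:115421816-115422065, plus strand: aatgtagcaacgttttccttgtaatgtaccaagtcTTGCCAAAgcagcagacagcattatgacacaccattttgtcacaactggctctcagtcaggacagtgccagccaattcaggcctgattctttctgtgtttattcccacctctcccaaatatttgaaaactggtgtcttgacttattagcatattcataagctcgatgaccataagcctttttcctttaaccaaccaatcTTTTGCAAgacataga

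In Nes-GFP low BMSCs, 8 of the 10 genes had lower fitted levels in AML than in normal mice, and none passed the test. The largest differences were those of Lpl, with a log2 fold change of -2.51 (SE 1.27, 95% confidence interval -5.25 to 0.23), and Adipoq, with -2.27 (SE 1.29, interval -5.06 to 0.51). Ebf1 followed with -1.65 (SE 1.14) and Lepr with -1.16 (SE 1.20), and Foxc1, Ebf3, Cebpa and Pparg lay between -0.87 and -0.59. Fabp4 (1.36, SE 1.19) and Apoe (0.34, SE 0.84) had higher fitted levels. The median of the 10 genes was -0.87, against 0.00 over all genes tested. Without normal low replicate 1, 6 of the 10 had lower fitted levels (median -0.43), and without normal low replicate 2, 7 did (median -0.55). Among the fits that leave out a library, the median was lowest, at -1.59, without AML low replicate 1. All 20 genes of the stroma list also had lower fitted levels in AML (median -1.41), with 2 at an unadjusted p under 0.05 and none past the adjusted threshold. By edgeR's quasi-likelihood test the adjusted p was 1 for each gene, and 0.0% of the 18152 genes tested passed, with 1006 at an unadjusted p under 0.05. The unadjusted p was 0.0692 for Lpl and 0.102 for Adipoq. DESeq2 called 0.681% of genes, 36 higher and 82 lower, and none of the 10. All 10 genes overlapped between the groups, as did nearly all genes, since only 0.441% lay wholly higher and 0.667% wholly lower in AML. Neutrophil markers, whose sums ran from 637 to 85380 CPM in normal and from 5943 to 74590 CPM in AML libraries, had a median log2 fold change of 0.27, macrophage markers one of 1.06, osteolineage markers one of -0.80 and erythroid markers one of -1.71. Erythroid sums ran from 425 to 3363 CPM in normal libraries and were 15.7, 27.7, 132 and 2591 CPM in AML libraries, in replicate order. The part of these markers in the differences was not tested.

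In Nes-GFP high BMSCs, 7 of the 10 genes had lower and 3 had higher fitted levels in AML mice. Ebf3 differed most, with a log2 fold change of -2.26 (SE 2.20), and Adipoq was next among the lower genes with -1.06 (SE 1.85). Apoe (1.45, SE 1.34), Pparg (1.41, SE 2.38) and Fabp4 (0.78, SE 1.86) were on the other side. With 2 libraries in each group every interval spanned 0, from -1.43 to 4.33 for Apoe and from -3.70 to 6.53 for Pparg. The edgeR adjusted p was 0.783 (Apoe) to 1, with 0.0% of genes passing and 2209 at an unadjusted p under 0.05, and DESeq2 called 10.5% of genes but none of the 10. All 10 genes overlapped between the groups, whereas 16.0% of all genes lay wholly higher and 11.5% wholly lower in AML. In the stroma list 19 of 20 genes had lower fitted levels in AML (median -0.90). Erythroid markers summed to 2777 and 136 CPM in normal and to 138 and 30.7 CPM in AML libraries, although Ter119+ cells were to be left out by the sort, and their part in the differences was not tested. Without normal high replicate 2 all 10 genes had higher fitted levels in AML (median 3.54), and without AML high replicate 1, 7 of 10 did (median 0.25). Without normal high replicate 2, 194 genes passed and none of the 10 did.

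**Figure D4:**
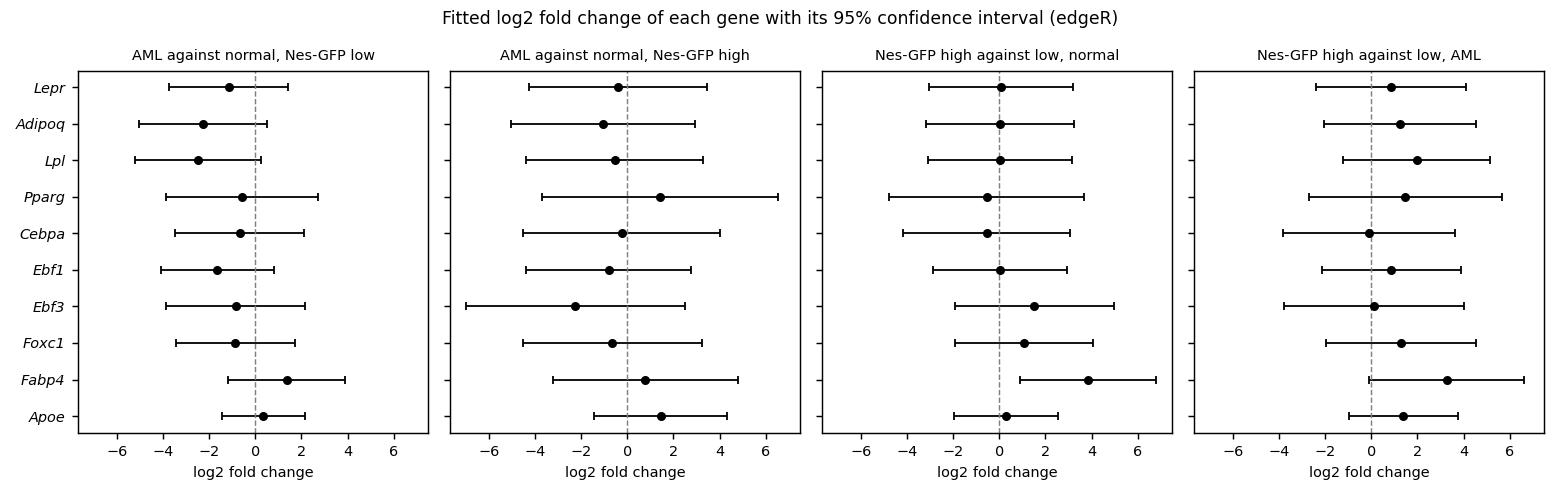
Log2 fold change of each gene (points) with its 95% confidence interval (bars) in 4 comparisons fitted with edgeR; the dashed line marks 0. Only the interval of Fabp4 between Nes-GFP high and low BMSCs of normal mice (0.88 to 6.82) lies on 1 side of 0, before adjustment over all genes.

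Between Nes-GFP high and low BMSCs of normal mice, Fabp4 differed most. Its log2 fold change was 3.85 (SE 1.38, 95% confidence interval 0.88 to 6.82), with an unadjusted p of 0.015 and an edgeR adjusted p of 0.357. DESeq2 gave an adjusted p of 0.0531, and over all alternatives it ran from 0.0531 to 0.999. The value rests on normal high replicate 2, which held 429 counts of Fabp4 against 14 in replicate 1, and without it the log2 fold change was -0.24. All 10 genes had lower fitted levels in Nes-GFP high BMSCs without that library (median -2.50), and all 10 had higher ones without normal high replicate 1 (median 0.73). Ebf3 (1.52, SE 1.60) and Foxc1 (1.07, SE 1.39) had higher fitted levels in Nes-GFP high BMSCs. For Lepr, the marker of the sinusoidal population, the log2 fold change was 0.08, with an interval from -3.06 to 3.21, and it was 0.03 (-3.19 to 3.24) for Adipoq and 0.01 (-3.12 to 3.13) for Lpl. The median over all genes was -0.27, that of the 10 genes 0.06 and that of the stroma list 0.39, with 20 of its 20 genes higher and none past the threshold. Osteolineage markers had a median of 1.49 and those of pericytes and muscle one of 1.42, and their part in the values was not tested. No gene passed with edgeR (0.0%, 2042 at an unadjusted p under 0.05) and DESeq2 called 11.0%, none of them among the 10. All 10 genes overlapped between the populations, where 3.47% of genes lay wholly higher and 7.86% wholly lower in Nes-GFP high BMSCs.

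In AML mice, 9 of the 10 genes had higher fitted levels in Nes-GFP high than in low BMSCs, a direction that rests on AML high replicate 2. Without that library 8 of the 10 had lower fitted levels (median -1.44), with Lepr at -1.20, Adipoq at -1.65, Lpl at -1.20, Ebf1 at -3.88 and Pparg at -6.23 on the log2 scale. Fabp4 again differed most, with a log2 fold change of 3.27 (SE 1.56, interval -0.10 to 6.63), an unadjusted p of 0.0562 and an edgeR adjusted p of 0.565. It was the only one of the 10 genes whose libraries did not overlap, at 19.6 and 87.7 CPM against 0.489 to 11.9 CPM, and 6.91% of all genes lay wholly higher and 8.83% wholly lower. Lpl (1.97, SE 1.48), Pparg (1.46, SE 1.95), Apoe (1.39, SE 1.09) and Foxc1 (1.28, SE 1.51) followed. Cebpa stood at -0.11 (SE 1.73). The median of the 10 genes was 1.26, against -0.10 over all genes, and that of the stroma list was 1.27, with 20 of 20 genes higher and none past the threshold. edgeR passed 0.0% of genes, with 1629 at an unadjusted p under 0.05, and DESeq2 called 7.05% and none of the 10. Fabp4 is also made by endothelial cells and macrophages. Endothelial markers summed to 2.48 and 1.36 CPM in the AML high libraries, below all 4 AML low libraries (13.0 to 28.4 CPM). Macrophage markers summed to 195 and 10.04 CPM, against 171 to 1426 CPM in AML low libraries. The part of these cells in the level of Fabp4 was not tested.

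The effect of AML was also compared between the populations. The log2 difference of the effects ran from -1.40 (SE 2.52) for Ebf3 to 2.0 (SE 2.83) for Pparg, with a median of 0.80 over the 10 genes and 0.14 over all genes. None of the 10 genes passed with edgeR, nor did any other (0.0%, 1808 at an unadjusted p under 0.05), and DESeq2 called 5.06% of genes. The lowest edgeR adjusted p among the 10 was 0.953, for Lpl. The median was -1.50 without AML high replicate 2 and 4.35 without normal high replicate 2. An AML effect that was shown to differ between Nes-GFP high and low BMSCs was therefore not found for any of the 10 genes, nor was it shown to be alike.

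Genes that mark a lipid-filled adipocyte were low or unevenly spread over the libraries. Cidec, a lipid droplet protein of white adipocytes, was at 0 in 13 of 14 libraries, and the adipokine gene Retn was at 0 in 10. Plin1, which coats the lipid droplet, had 0 to 3 counts in 12 libraries, 47 in normal low replicate 2 and 109 in AML low replicate 2. Cfd, the adipokine adipsin, had 179 of its 194 counts in AML low replicate 2. Plin4, another coat protein of lipid droplets, held 860 counts in AML low replicate 2, 450 in AML high replicate 1, 318 in AML low replicate 1, 185 in normal low replicate 2, 115 in normal low replicate 4 and 0 to 27 in the 9 others. These genes were singled out after their values were seen. AML low replicate 2 was not high in the adipocyte genes described above, since Fabp4 stood at 4.40 CPM, Adipoq at 63.1 CPM and Lpl at 142 CPM, although its Pparg, at 40.8 CPM, was the highest of the 4 AML low libraries. It was the library with the highest Apoe among the AML low libraries. The 21 genes of a mature adipocyte list that were counted summed to 306 to 903 CPM in every library, and its most abundant genes were lipid synthesis and lipase genes that many cell types use, with Dgat1 (37.5 to 292 CPM), Scd1 (4.40 to 206), Pnpla2 (0 to 195) and Agpat2 (2.28 to 182) in the lead. The sum of this list did not follow Lepr (r = -0.49 over the 14 libraries, as a description). None of its 17 tested genes passed with edgeR in any comparison. DESeq2 called Scd1, the stearoyl-CoA desaturase, in the AML comparison of Nes-GFP high BMSCs (log2 fold change 3.56 by edgeR, edgeR adjusted p 0.279, DESeq2 adjusted p 0.00793), with 25.2 and 4.40 CPM in normal and 164 and 185 CPM in AML libraries. Of the 17 tested genes of the list, DESeq2 called Scd1 as higher and Lipe as lower there, against 10.5% of all genes. Lipe held 7.94 to 51.8 CPM in normal and 0.314 to 0.372 CPM in AML Nes-GFP high libraries. Between Nes-GFP high and low BMSCs of normal mice, DESeq2 called only Scd1 of this list, as lower, against 11.0% of all genes. Normal Nes-GFP low libraries held Scd1 at 35.4 to 206 CPM, a range that takes in both AML Nes-GFP high values.

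**Figure D5:**
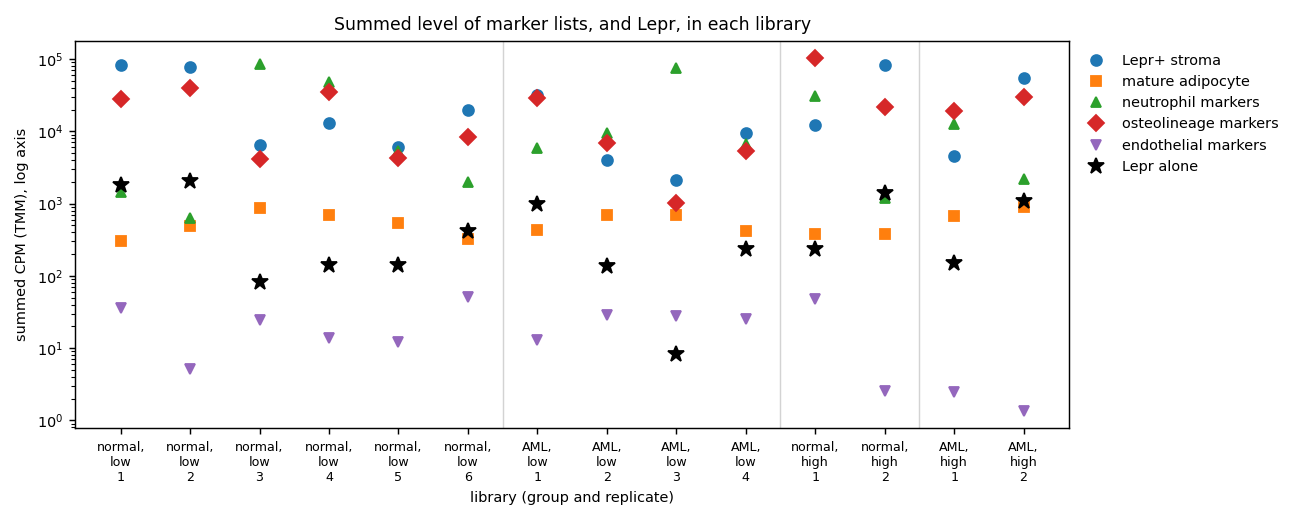
Summed CPM (log axis) of 5 marker lists, and Lepr alone, in each of the 14 libraries. Lepr follows the stroma list (r = 0.94) and is lowest, at 8.23 CPM, in AML low replicate 3, where neutrophil markers sum to 74590 CPM, while the mature adipocyte list stays between 306 and 903 CPM.

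Other factors of adipogenesis were expressed at intermediate levels. Of 20 such genes, 19 were tested and none passed with edgeR in any comparison. Cebpd (85.3 to 834 CPM), Egr2 (6.58 to 948), Cebpb (5.55 to 547) and Stat5a (5.70 to 435) led the list. Cebpd and Cebpb act early in adipocyte differentiation, ahead of Pparg and Cebpa. In Nes-GFP low BMSCs, 13 of the 19 had lower fitted levels in AML, with a median log2 fold change of -0.32. Ppargc1a, the coactivator of brown fat, did not exceed 0.189 CPM and, like Dlk1 in the next list, was singled out after its values were seen. Among 16 genes that restrain adipogenesis, 14 were tested and none passed. Klf2 (85.5 to 497 CPM), Ctnnb1, which encodes β-catenin (95.9 to 472), Hes1 (16.4 to 444) and Ncor1 (42.5 to 154) led them, whereas Dlk1, the preadipocyte factor, had a median of 0 CPM. Their median log2 fold change in AML was 0.20 in Nes-GFP low and 0.03 in Nes-GFP high BMSCs.

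Partners of the leptin receptor in signalling varied to different degrees. Lepr had a ratio of highest to lowest library of 245, against 481 for Irs1, 235 for Sh2b1 and 3.95 for Leprotl1, which were singled out after their values were seen. Stat3, which the receptor activates, ranged from 59.6 to 445 CPM, and Leprot, whose product limits the receptor at the cell surface, from 86.5 to 354 CPM. Socs3, the feedback inhibitor that STAT3 induces, held 2530 and 2400 CPM in normal low replicates 1 and 2, the libraries with the highest Lepr, and 19.1 to 1040 CPM in the 12 others. Normal high replicate 2, AML high replicate 2 and AML low replicate 1, next in Lepr (1390, 1080 and 996 CPM), held Socs3 at 455, 758 and 1040 CPM. Normal high replicate 1, with Lepr at 233 CPM, held it at 874 CPM. Adipor1, a receptor for adiponectin, ranged from 95.6 to 448 CPM. All 14 genes of this list were tested and none passed with edgeR, with 7 higher and 7 lower in AML Nes-GFP low BMSCs (median -0.15) and 8 higher and 6 lower in Nes-GFP high BMSCs (median 0.14). Of 16 genes that act on lipoproteins with Lpl and Apoe, 14 were tested and none passed. Angptl4, an inhibitor of lipoprotein lipase, was among the 5 genes most like Adipoq and ranged from 12.9 to 1000 CPM. Lrp1, a receptor of apolipoprotein E, ranged from 31.5 to 726 CPM, Pltp from 7.10 to 331 CPM and Nr1h2 from 20.6 to 177 CPM.

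Some marker lists varied with Lepr over the 14 libraries and others did so less, and differences between groups were not removed from these values. Lepr had an r of 0.83 with pericyte and muscle markers, 0.71 with osteolineage markers and -0.69 with macrophage markers. The values were weaker for B cell (-0.43), endothelial (-0.36), Schwann cell (0.36) and erythroid markers (-0.15). Lepr had an r of 0.94 with the stroma list and of -0.85 with the neutrophil list, and Adipoq had 0.98 and -0.78. For Apoe these values were 0.30 and -0.49, and for Fabp4 0.29 and -0.36. Osteolineage markers summed to 1034 CPM in AML low replicate 3 and to 102000 CPM in normal high replicate 1, the libraries with the lowest Lepr and with the lowest Cebpa and Foxc1. Exons of Cebpa share 51 bases with an antisense gene (1.94% of their length) and those of Ebf3 share 355 bases with another (3.85%), and reads there could not be assigned by strand, since the strand setting of the counting is not given in the sources used here.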

How the data were processed

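RNA of sorted Nes-GFP+ BMSCs was made into polyA Smart-seq2 libraries. The authors deposited raw counts per gene, made from reads trimmed with Trim Galore 0.4.1, aligned to mm10 with TopHat2 2.1.0 and counted with featureCounts, and tested them with DESeq2 1.14.1. Genes were counted on the annotation of Ensembl release 86, and the strand setting is not given in the sources used here. The table also held 2 columns that match no labelled sample, which were not used. Groups came from the sample labels.

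Counts were analysed with edgeR 4.0.16 in R 4.3.3: genes with low counts were left out (filterByExpr, minimum count 10), libraries were scaled by TMM, and 1 quasi-likelihood model over the 4 groups was fitted, with two-sided tests and Benjamini-Hochberg adjustment over 18152 genes at a threshold of 0.05. Levels are CPM, and log values have a pseudocount of 1. Libraries of 1 group differed beyond sampling noise, with a chi-square of 97.9 to 421 times its degrees of freedom. The procedure was tested on simulated data, where the recovery of known changes was required only at a low spread set for the test, not at that of these libraries. Alternatives were DESeq2 1.42.0, voom with limma 3.58.1, other scalings, other filters, only the groups compared, a replicate block and leaving out each library. Gene positions are those of GENCODE (GRCm38). The 10 genes, the 4 most abundant genes of each list, any called list gene and the 5 genes most like Lepr and Adipoq are named. The genes and lists were chosen with earlier results of these data known.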

Additional observations from a re-analysis of the deposited data

Results flagged for a closer look

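Apoe in AML Nes-GFP low BMSCs stood at 6590 CPM in replicate 2 and at 1440 to 1800 CPM in the 3 other libraries, a gap wider, relative to the range, than Dixon's 95% critical value for 4 samples. The same library held 109 of the 171 counts of Plin1 and 179 of the 194 counts of Cfd. Of 20 groups of values examined this was the only one past its limit, and chance alone passes about 1 in 20.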

How the results depend on the processing

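None of the 10 genes passed the threshold in any of 1140 values under alternatives, in 50 results of a gene and a comparison, and 113 of these values had the other sign, 80 of the 700 that leave out a library and 33 of the 440 others. With DESeq2, 1593 genes passed in AML against normal Nes-GFP high BMSCs, 118 in Nes-GFP low BMSCs, 1737 in Nes-GFP high against low BMSCs of normal mice, 1090 in AML mice and 768 in the difference of the AML effects, against 0 with edgeR in each. Limma voom called 1 gene in Nes-GFP high against low BMSCs of AML mice, and a filter at a mean of 10 CPM called 1 in AML against normal Nes-GFP high BMSCs. Leaving out a library gave 0 to 194, 0 to 0, 0 to 189, 0 to 1 and 0 to 144 genes called in these 5 comparisons, in the same order, with 194, 189 and 144 without normal high replicate 2. The restriction to the groups compared could not be applied to the difference of the AML effects, which uses all 4 groups. Fitted log2 values that changed sign with voom were Pparg -0.40, Cebpa 3.44 and Foxc1 1.70 for AML against normal in Nes-GFP high BMSCs, Pparg 1.03 and Cebpa 0.07 for AML against normal in Nes-GFP low BMSCs, Pparg 0.26, Ebf3 -0.06 and Foxc1 -1.58 for Nes-GFP high against low in normal mice, Pparg -1.18 and Cebpa 0.08 for Nes-GFP high against low in AML mice and Pparg -1.43, Ebf1 -0.08 and Ebf3 1.5 for the difference of the AML effects. Without a filter on low counts they were Lepr -0.01, Adipoq -0.06, Lpl -0.09 and Ebf1 -0.05 for Nes-GFP high against low in normal mice, and with the filter at 10 CPM Lpl 0.00 for Nes-GFP high against low in normal mice. Same-numbered libraries of 2 groups had correlations of their deviations from -0.2 to 0.496, the highest between replicate 3 of AML and of normal Nes-GFP low BMSCs. Where both groups hold 2 libraries the deviations mirror each other, so that the check cannot tell a pairing there. Whether same-numbered libraries share more than a number was not settled. With a replicate block 0 genes were called in each of the 5 comparisons, and 8 of the 10 genes then had lower fitted levels in Nes-GFP high BMSCs of AML mice and 9 of 10 in those of normal mice. The values that changed sign were Cebpa 0.00 for AML against normal in Nes-GFP high BMSCs, Lepr -1.54, Adipoq -1.32, Lpl -2.05, Ebf1 -1.35, Ebf3 -0.70, Foxc1 -1.37 and Apoe -0.70 for Nes-GFP high against low in normal mice and Lepr -0.59, Adipoq -0.67, Lpl -0.44, Pparg -1.75, Ebf1 -0.67, Ebf3 -1.15 and Foxc1 -0.52 for Nes-GFP high against low in AML mice. Leaving out each library in turn moved these values across 0. In AML against normal in Nes-GFP high BMSCs, Lepr ranged from -2.46 to 1.36, Adipoq from -3.99 to 0.38, Lpl from -3.75 to 2.78, Pparg from -6.29 to 4.86, Cebpa from -1.39 to 8.82, Ebf1 from -5.60 to 0.92, Ebf3 from -4.60 to 4.30, Foxc1 from -3.80 to 6.80 and Fabp4 from -0.68 to 4.86. In AML against normal in Nes-GFP low BMSCs, Pparg ranged from -0.85 to 0.03, Cebpa from -1.98 to 0.07 and Apoe from -0.50 to 0.94. In Nes-GFP high against low in normal mice, Lepr ranged from -1.67 to 0.69, Adipoq from -1.41 to 0.73, Lpl from -3.32 to 0.77, Pparg from -3.99 to 0.21, Cebpa from -9.62 to 0.27, Ebf1 from -1.68 to 0.65, Ebf3 from -5.03 to 2.35, Foxc1 from -6.36 to 1.91, Fabp4 from -0.24 to 4.64 and Apoe from -0.91 to 0.88. In Nes-GFP high against low in AML mice, Lepr ranged from -1.20 to 2.33, Adipoq from -1.65 to 2.64, Lpl from -1.20 to 2.96, Pparg from -6.23 to 2.47, Cebpa from -1.24 to 1.14, Ebf1 from -3.88 to 1.88, Ebf3 from -2.17 to 1.01 and Foxc1 from -1.84 to 2.21. For the difference of the AML effects, Lepr ranged from -1.29 to 2.53, Adipoq from -1.70 to 2.73, Lpl from -1.22 to 5.31, Pparg from -5.70 to 5.46, Cebpa from -0.69 to 9.52, Ebf1 from -3.94 to 2.59, Ebf3 from -3.71 to 5.20, Foxc1 from -2.94 to 7.66, Fabp4 from -2.05 to 3.50 and Apoe from -0.11 to 2.28. Other scalings shifted the median of all genes by no more than 0.08, and the filter at 10 CPM shifted it by 0.22 in Nes-GFP high against low BMSCs of normal mice. The cause of these changes was not tested. Low counts limit Fabp4 (2 to 64 counts in normal Nes-GFP low libraries) and Cebpa, Foxc1 and Ebf3 in normal high replicate 1 (1, 7 and 12 counts), Pparg (3 counts in AML high replicate 1, and 9, 12 and 24 in normal low replicates 5, 3 and 6) and Ebf3 in AML low replicate 3 (4 counts).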
